A study of Citrus sinensis with 6 samples.

Results

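Cs_ont_3g014800 and Cs_ont_3g014810 are neighbouring genes of sweet orange (Citrus sinensis) that both carry the Gene Ontology (GO) annotation carbohydrate binding and no narrower function. They are 2 of the 74 genes with this annotation among the 29875 genes of the deposited expression table. The pair was chosen by a measured value, namely a large rise in FPKM, a read level scaled to gene length and library depth, in all 3 boron-deficient libraries. The difference between the boron-deficient and the sufficient-boron libraries in these 2 genes is therefore given here as a description, with no test.

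Leaf RNA was sequenced from tissue-cultured plants of the variety Bingtang in 6 libraries, 3 from boron-deficient plants (T) and 3 from plants with sufficient boron (CK), all taken at 25 days. The methods of the paper give the supply as boric acid at 0.01 mg/L for T and 0.25 mg/L for CK, whereas the treatment note attached to each of the 6 libraries reads 0.01 mg/L boron, so the groups follow the library titles. Those titles name leaf for T and leaf blades for CK, although the tissue given for all 6 is leaf blade, and a difference in the part of the leaf that was sampled cannot be told apart from boron supply. Nothing in the sources says that the libraries of a group came from separate plants, so the p-values refer to the spread among these libraries, which may be technical.

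The annotation carbohydrate binding also covers genes that are annotated with enzyme activities, among them cellulase activity. Lectins, a group of carbohydrate-binding proteins of plants, hold sugars without changing them. They are known from storage tissue, from the phloem and from the response to attack and stress, where they recognise sugars of cell walls, of glycoproteins or of foreign organisms. Boron itself is best known in plants as the element that cross-links pectin, a polysaccharide of the cell wall. The table gives the 2 genes no name beyond the identifier, so the family of sugar-binding proteins to which they belong is not stated here. Sequences of the 2 genes were not used here.

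Cs_ont_3g014800 was a gene of low level under sufficient boron and of moderate level under boron deficiency. It had 43.4, 39.0 and 54.4 FPKM in T replicates 1 to 3, against 1.69, 1.39 and 7.32 FPKM in CK replicates 1 to 3. The T libraries were close together, CK replicate 3 stood above the other CK libraries, and the lowest T value was 5.33 times the highest CK value. The mean was 45.6 ± 7.91 FPKM in T and 3.47 ± 3.34 FPKM in CK (SD, n = 3 each), a ratio of 13.2. Behind these values stood 428, 492 and 641 reads in T and 18, 15 and 98 reads in CK, as recovered from the FPKM values. Exact Poisson intervals of 95%, which cover counting error only, ran from 0.777 to 2.29 FPKM for CK replicate 2 and from 5.94 to 8.92 FPKM for CK replicate 3. The distance between CK replicate 3 and the other CK libraries was thus larger than counting error.

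Cs_ont_3g014810 was more abundant than its neighbour in every library. It had 527, 718 and 1040 FPKM in T replicates 1 to 3, against 18.2, 68.5 and 164 FPKM in CK replicates 1 to 3. All T values again lay above all CK values, by a factor of 3.21 between the lowest T and the highest CK library, but the CK libraries differed from each other by a factor of 9.02. The mean was 762 ± 259 FPKM in T and 83.6 ± 74.1 FPKM in CK (SD, n = 3 each), a ratio of 9.12. Reads for this gene numbered 10394, 18110 and 24508 in T and 387, 1478 and 4390 in CK, so that counting error was small beside the spread between libraries.

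By rank, Cs_ont_3g014810 was the gene at place 104, 61 and 30 from the top in T replicates 1 to 3, and at place 5658, 1329 and 416 in CK replicates 1 to 3. Cs_ont_3g014800 stood at place 2510, 2803 and 1910 in T, against 14641, 15624 and 11149 in CK. These places are among the 19882 to 20691 genes above 0 in each library. Together the pair took 0.0612%, 0.0822% and 0.119% of all recovered reads in T and 0.00212%, 0.00770% and 0.0187% in CK.

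**Figure D1:**
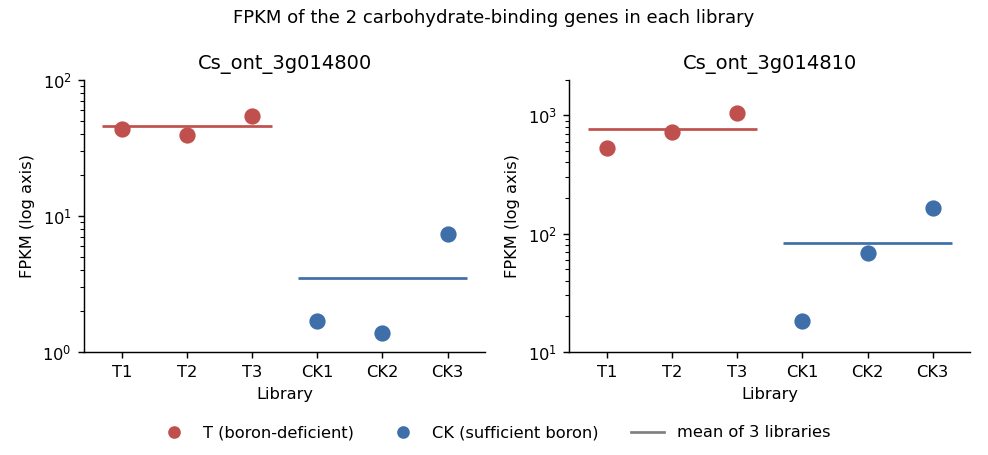
FPKM on a log axis of Cs_ont_3g014800 (left) and Cs_ont_3g014810 (right) in each library, with T in red and CK in blue, and a line at the mean of the 3 libraries of a group. The T libraries sit between 39.0 and 54.4 FPKM and between 527 and 1040 FPKM, above all CK libraries, whose points are spread more widely.

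As log2(FPKM + 1), a scale that makes differences of weakly expressed genes look smaller than they are, T exceeded CK by 3.61 in Cs_ont_3g014800 and by 3.60 in Cs_ont_3g014810. The SD over the 3 libraries on this scale was 0.24 in T and 0.99 in CK for Cs_ont_3g014800. For Cs_ont_3g014810 it was 0.49 in T and 1.56 in CK. Single CK libraries moved the size of the difference. For Cs_ont_3g014810 it was 2.78 without CK replicate 1 and 4.33 without CK replicate 3, and for Cs_ont_3g014800 it was 4.19 without CK replicate 3. Leaving out a T library gave 3.48 to 3.72 for Cs_ont_3g014800 and 3.35 to 3.84 for Cs_ont_3g014810.

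The 2 genes did not keep a fixed ratio. Per length, Cs_ont_3g014810 stood 12.2, 18.4 and 19.1 times above Cs_ont_3g014800 in T replicates 1 to 3, and 10.8, 49.3 and 22.4 times above it in CK replicates 1 to 3. CK replicate 1 had the lowest and CK replicate 2 the highest ratio, and the T ratios lay between them. Over the 6 libraries, log2(FPKM + 1) of the 2 genes had a Pearson r of 0.949 and a Spearman rho of 0.886, a description of 6 points that share libraries and groups. Both genes were highest in T replicate 3 among T and in CK replicate 3 among CK. They differed in their lowest libraries, which were T replicate 2 and CK replicate 2 for Cs_ont_3g014800 and T replicate 1 and CK replicate 1 for Cs_ont_3g014810. The gene lengths that fit the FPKM values were 555 and 1109 bases. How reads that match more than 1 gene were counted is not given in the sources used here, so part of the reads of either gene could belong to a related copy.

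The genes around the pair were compared in the order of their identifiers. A gene was tested where it had at least 1 FPKM in at least 3 libraries, which both genes of the pair had in all 6. Of the 10 genes before the pair, 9 were tested, and of the 10 after it 4 were tested. T and CK were compared with limma, and a differentially expressed gene (DEG) is one with a fold change of at least 2 on the log2(FPKM + 1) scale and an unadjusted p of at most 0.05. These are the cut-offs of the paper's methods, which applied them to another test on read counts. Among the 13 tested neighbours, 3 were DEGs, all higher in T and all before the pair, and 0 were lower. Over all 16421 tested genes, 1.27% were DEGs higher in T and 1.08% were DEGs lower in T, 2.36% in all. None of the 3 passed Benjamini-Hochberg adjustment over all tested genes with limma, where 0.00609% of the tested genes had an adjusted p under 0.05. At an unadjusted p under 0.05 there were 3, against 4.78% of all tested genes. With limma voom fitted to recovered reads, 3 neighbours were DEGs, against 424 of all 16421 tested genes. An adjusted p under 0.05 was found there for 0 neighbours and for 0 of all tested genes.

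Cs_ont_3g014790, the gene directly before the pair, has no annotation in the table and was low in every library. It had 2.55, 1.68 and 6.47 FPKM in T replicates 1 to 3, against 0.187, 0.798 and 1.19 FPKM in CK replicates 1 to 3, from 38, 32 and 115 reads in T and 3, 13 and 24 reads in CK. The groups did not overlap, and T replicate 3 was the highest library, as it was in the pair. The log2 difference between T and CK was 1.31 (standard error 0.45, adjusted p = 0.926 from limma). It was no longer a DEG when T replicate 3 was left out (0.89), nor when CK replicate 1 (1.06) or CK replicate 2 (1.36) was.

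Cs_ont_3g014780, the next gene before it, has no annotation either. It had 25.3, 21.9 and 53.6 FPKM in T replicates 1 to 3, against 2.97, 7.71 and 8.79 FPKM in CK replicates 1 to 3. All T libraries were above all CK libraries, the order of the libraries within T was that of Cs_ont_3g014800, and within CK it was that of Cs_ont_3g014810. The mean was 33.6 ± 17.4 FPKM in T and 6.49 ± 3.10 FPKM in CK (SD, n = 3 each), with a log2 difference of 2.20 (standard error 0.46, adjusted p = 0.542 from limma). This gene was a DEG in each of the 13 alternative analyses, with a log2 difference of 1.80 to 2.45 and an adjusted p from limma of 0.163 to 1.0.

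Between these genes and the rest lay Cs_ont_3g014770, without annotation, which was not a DEG, at 3.83 ± 1.14 FPKM in T and 2.62 ± 0.812 FPKM in CK (SD, n = 3 each). Its log2 difference was 0.42 (standard error 0.29, adjusted p = 0.999 from limma). Beyond it, Cs_ont_3g014760 is annotated with phospholipase D activity, the cleavage of membrane phospholipids to phosphatidic acid. It had 32.5, 3.78 and 19.6 FPKM in T replicates 1 to 3, against 1.48, 1.79 and 0.996 FPKM in CK replicates 1 to 3. Here CK was low throughout and T replicate 2 was nearer to CK than to the other T libraries, unlike in the pair, where the 3 T libraries differed by a factor of at most 1.97. The log2 difference was 2.63 (standard error 0.69, adjusted p = 0.743 from limma), and it was 2.05 to 3.45 when 1 library was left out.

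Farther before the pair, differences were small. Cs_ont_3g014750, named after its values were seen, is annotated to drought recovery and stood at 10.5 ± 4.38 FPKM in T and 10.5 ± 5.42 FPKM in CK (SD, n = 3 each). The 4 tested genes beyond it had log2 differences of -0.26 to 0.33, and 1 gene, Cs_ont_3g014740, was below the filter.

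After the pair, no gene was a DEG. The gene directly after it, Cs_ont_3g014820, without annotation, had 22.0, 35.7 and 26.7 FPKM in T replicates 1 to 3, against 18.2, 19.7 and 36.0 FPKM in CK replicates 1 to 3, and the groups overlapped. Its log2 difference was 0.22 (standard error 0.31, adjusted p = 0.999 from limma). Cs_ont_3g014830, also unannotated, stood at 18.7 ± 5.99 FPKM in T and 14.3 ± 4.85 FPKM in CK, and Cs_ont_3g014840 at 1.76 ± 0.536 FPKM in T and 2.49 ± 0.719 FPKM in CK (SD, n = 3 each). Cs_ont_3g014850, annotated as a pectinesterase, an enzyme that removes methyl groups from the pectin of cell walls, stood at 11.2 ± 3.51 FPKM in T and 8.29 ± 3.82 FPKM in CK (SD, n = 3 each). Of the 6 genes that follow, 5 were listed at 0 in all libraries and the other, Cs_ont_3g014860, at no more than 0.0513 FPKM.

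**Figure D2:**
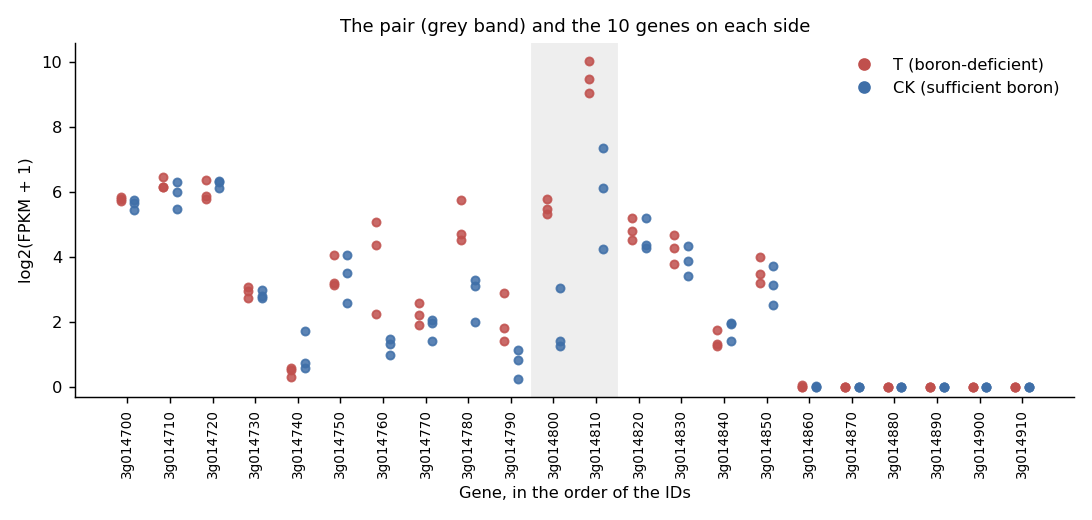
Values of log2(FPKM + 1) in each library for the pair (grey band) and the 10 genes on each side, in the order of the identifiers, with T in red left of CK in blue. Before the pair, 3g014760, 3g014780 and 3g014790 show T points above all CK points, whereas after the pair the groups overlap or lie at 0.

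Every T library was above every CK library in 3 of the 13 tested neighbours, the same 3 genes. Over all tested genes this held for 4.46%. The median log2 difference was 0.33 over the 9 tested genes before the pair, 0.29 over the 4 after it and 0.02 over all tested genes. In the whole table, 10814 pairs of adjacent genes had both genes tested. In 18 of these pairs both genes were DEGs higher in T, a count from which the pair described here was not left out. Ordered by the smaller log2 difference of the 2 genes, the pair described here stood first and the next stood at 2.69. The pair was chosen for its rise, so neither its place nor the gap is a result.

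The other genes with the same annotation were compared in the same way. Besides the pair, 72 genes were annotated as carbohydrate binding, of which 61 were above 0 in at least 1 library and 47 were tested. In T, 25 of these 47 were higher and 22 were lower. Their median log2 difference was 0.07, against 0.02 over all tested genes. The only DEG among them was Cs_ont_9g018340, a share of 2.13%, which is near the 2.36% over all tested genes. At an unadjusted p under 0.05 there were 2 of the 47, where 4.78% of all tested genes were. In limma and in its voom form on recovered reads 0 passed adjustment, where 1 and 0 of all tested genes did. The 46 tested genes that were not DEGs had log2 differences of -1.13 to 0.98. The pair had 3.61 and 3.60, but it was chosen for its rise and the 46 for missing the cut-offs, so the gap is no result.

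Cs_ont_9g018340 is annotated with cellulase activity as well, the cutting of cellulose chains of the cell wall. It had 2103, 870 and 768 FPKM in T replicates 1 to 3, against 468, 189 and 145 FPKM in CK replicates 1 to 3. T replicate 1 and CK replicate 1 were the highest libraries of their groups, whereas both genes of the pair were highest in replicate 3 of each group. The log2 difference was 2.25 (standard error 0.58, adjusted p = 0.743 from limma), with a range of 1.80 to 2.83 over the alternative analyses. Cs_ont_9g018470, chosen after its values were seen, is annotated to the same activity and failed the filter on low values. It had 13.3, 5.35 and 0.424 FPKM in T replicates 1 to 3, against 0.0391, 0.0386 and 0.0622 FPKM in CK replicates 1 to 3, from 1 or 2 reads in each CK library.

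The remaining abundant carbohydrate-binding genes did not share the pattern of the pair. Cs_ont_5g016840 stood at 259 ± 49.2 FPKM in T and 288 ± 63.7 FPKM in CK, and Cs_ont_9g025590, annotated to the binding of galacturonate, the sugar acid of pectin, at 198 ± 70.1 FPKM in T and 178 ± 31.8 FPKM in CK (SD, n = 3 each). Cs_ont_3g013890, which lies 91 genes before the pair in the table, had 105, 113 and 154 FPKM in T replicates 1 to 3, against 199, 227 and 147 FPKM in CK replicates 1 to 3. Its log2 difference was -0.62 (standard error 0.25, adjusted p = 0.999 from limma), and the groups overlapped. No other carbohydrate-binding gene lay within 50 genes of the pair.

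**Figure D3:**
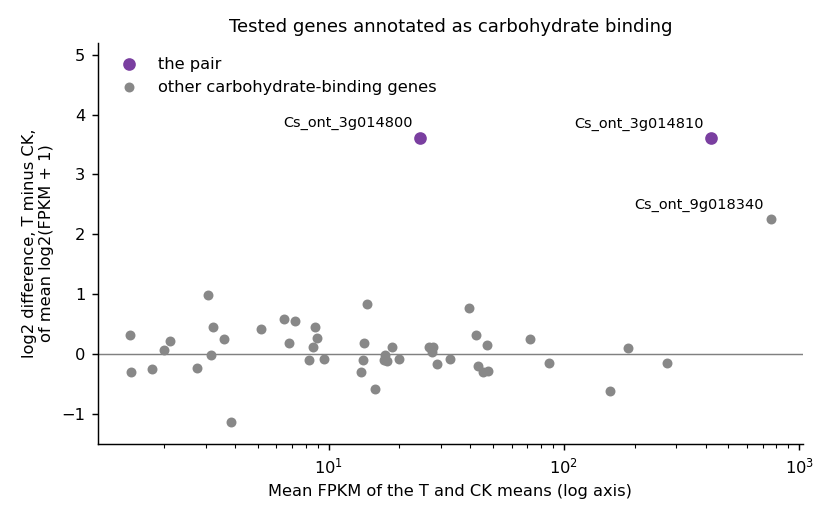
Log2 difference, T minus CK, of mean log2(FPKM + 1) against the mean FPKM of both groups (log axis), 1 point for each tested gene annotated as carbohydrate binding. The pair (purple), chosen for its rise, lies at 3.61 and 3.60, and Cs_ont_9g018340 (grey, labelled), the only DEG of the others, at 2.25. The 46 genes that were not DEGs lie between -1.13 and 0.98.

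Genes with a pattern like that of the pair were sought by Pearson's r of log2(FPKM + 1) over the 6 libraries, among 13002 tested genes with a mean of at least 5 FPKM in T or CK. These values describe 6 points that share the 2 groups, so a gene that differs between T and CK can have a high r for that reason alone. An r above 0.95 was found for 21 genes with Cs_ont_3g014800 and for 11 genes with Cs_ont_3g014810. Cs_ont_3g014810 itself was at place 22 in the list of Cs_ont_3g014800, and Cs_ont_3g014800 at place 12 in the list of Cs_ont_3g014810.

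The gene nearest to Cs_ont_3g014800 was Cs_ont_6g011110, annotated as a DNA-binding transcription factor, that is a protein that switches genes on or off (r = 0.998, rho = 1.0). It had 158, 113 and 162 FPKM in T replicates 1 to 3, against 1.08, 1.004 and 8.81 FPKM in CK replicates 1 to 3, so that its libraries stood in the same order as those of Cs_ont_3g014800. The ratio of its means was 39.8, larger than the 13.2 of Cs_ont_3g014800. The other 4 nearest genes were Cs_ont_2g029870, annotated to zinc transport across membranes (r = 0.996), the unannotated Cs_ont_2g009460 (r = 0.993) and Cs_ont_6g013470 (r = 0.986), and Cs_ont_3g001310, annotated to the synthesis of the hormone jasmonic acid (r = 0.980). Their T means were 1.19, 4.20, 4.48 and 2.18 times their CK means. A high r thus did not go with a difference of the same size, as the zinc transport gene was at 10.5 ± 0.141 FPKM in T and 8.84 ± 0.358 FPKM in CK (SD, n = 3 each).

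The gene nearest to Cs_ont_3g014810 was Cs_ont_6g011120, which directly follows Cs_ont_6g011110 in the table and is annotated to the binding of mRNA (r = 0.989, rho = 1.0). It had 50.7, 50.8 and 51.8 FPKM in T replicates 1 to 3, against 24.1, 29.4 and 35.4 FPKM in CK replicates 1 to 3, a ratio of 1.72 between the means. Next came Cs_ont_6g013470 (r = 0.987), which was in the list of both members, and the unannotated Cs_ont_8g003070 (r = 0.981), followed by Cs_ont_2g008110, annotated with ATP hydrolysis (r = 0.976), and the unannotated Cs_ont_3g009980 (r = 0.973). Cs_ont_6g013470 had 30.0, 29.7 and 37.5 FPKM in T replicates 1 to 3, against 3.94, 6.12 and 11.6 FPKM in CK replicates 1 to 3. Of the 9 different genes in the 2 lists, 0 carried the annotation carbohydrate binding and 0 were among the 20 neighbours of the pair.

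**Figure D4:**
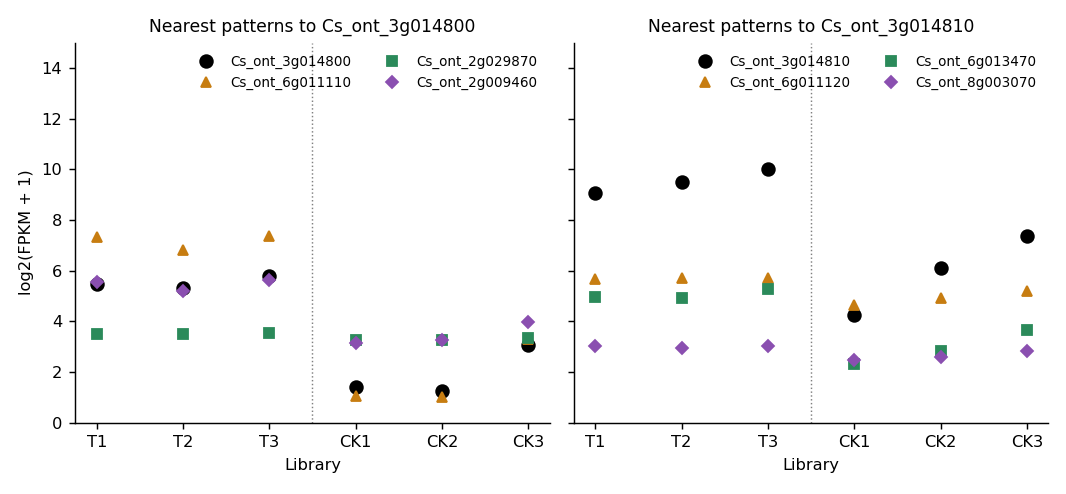
Values of log2(FPKM + 1) in each library for Cs_ont_3g014800 (left) and Cs_ont_3g014810 (right), in black, and for the 3 genes with the highest Pearson's r to each. In each panel the points fall from the T to the CK side of the dotted line, by differing amounts.

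Lists of other leaf genes were read beside the pair. The summed FPKM of the 95 genes annotated to photosynthesis was 15520 to 23050 in T, against 23150 to 27760 in CK, and of its 72 tested genes 13 were higher and 59 lower in T, against 8733 higher and 7688 lower over all tested genes. DEGs were 2 of the 72, both lower, or 2.78% against 2.36% over all tested genes. The median log2 difference of the 72 was -0.20, against 0.02 over all tested genes. Every T library was below every CK library in 14 of the 72 and above in 1, against 609 and 733 of all 16421 tested genes. An unadjusted p under 0.05 from limma was found for 7 of the 72, against 4.78% of all tested genes. The summed FPKM of the 85 genes annotated to the development of phloem or xylem was 2678, 2395 and 3892 in T replicates 1 to 3, against 2657 to 2678 in CK. Its highest value was in T replicate 3. In T replicate 1 this sum was level with CK replicate 2, and in T replicate 2 it was below all CK libraries. The sum includes Cs_ont_6g011110, the gene with the pattern nearest to that of Cs_ont_3g014800. In the photosynthesis list 10 genes were at 0 in all libraries, and in the phloem or xylem list 5 were. The part of leaf tissue composition in the difference of the pair was not tested, and in bulk tissue more cells of a type and more RNA per cell cannot be told apart. The recovered reads were 17689223 to 24026181 per library. The Pearson correlation of log2(FPKM + 1) over the tested genes was 0.875 to 0.940 within groups and 0.873 to 0.958 between groups. By this measure the libraries did not separate by boron supply. The most similar were T replicate 3 and CK replicate 1 (0.958), which held the highest and the lowest value of Cs_ont_3g014810. Next came T replicate 1 and CK replicate 1 (0.943).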

How the data were processed

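The deposited values are FPKM per gene and library. The authors used fastp for trimming, HISAT2 for alignment and HTSeq for read counts per gene, from which FPKM was derived. The paper names a sweet orange genome release for its gene family analysis, whereas tool versions and the build behind the alignment are not stated in the sources used here. Group means and the authors' own fold changes, p-values and calls stand in the same table and were not used. Reads were recovered from the deposited FPKM as whole multiples of the value of 1 read, and 98.16% of the lengths this gave for 22740 expressed genes were whole numbers (tolerance 0.001 base). For 408 genes a common factor of the reads was restored from the length.

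T and CK were compared with limma 3.58.1 (R 4.3.3; lmFit, eBayes with an intensity trend, two-sided, 4 residual degrees of freedom) on log2(FPKM + 1), with Benjamini-Hochberg adjustment over the 16421 genes with at least 1 FPKM in at least 3 libraries. The fit was run on data simulated with independent noise, to check that it returned changes of known size. This check does not show that the p-values hold for the real libraries. An exact permutation test of 3 libraries against 3 cannot go below p = 0.1 and was not used. Alternatives were other pseudocounts, filters and scalings, a replicate block, array weights, each library left out and, added after the data were seen, limma voom on recovered reads. Python 3.11.15, numpy 2.4.6, pandas 2.3.3, scipy 1.17.1 and matplotlib 3.10.9 did the rest.

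The members and the lists were chosen with earlier results of these data known. Genes were named by rule: the pair, the 4 genes on each side and any DEG among the 10 on each side, the DEGs and the 4 most abundant of the other carbohydrate-binding genes, the 5 nearest patterns to each member, and up to 3 DEGs of each list. Cs_ont_3g014750 and Cs_ont_9g018470 fall outside this rule. The function given for a gene is the rarest in the table of its GO terms for molecular function. Where a gene had none, the rarest term for process, and then for cell component, was taken. It is thus an annotation and not an identity. The RefSeq gene table at hand does not carry these identifiers and was not used.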

Additional observations from a re-analysis of the deposited data

How the results depend on the processing

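The log2 difference of the pair ranged over 3.29 to 4.19 for Cs_ont_3g014800 and 2.78 to 4.33 for Cs_ont_3g014810 in the 13 alternatives, with both ends of each range reached by leaving out a library. Its sign was fixed by the choice of the pair. Among the neighbours, 2 to 3 were DEGs when 1 library was left out, 1 with a filter of at least 5 FPKM, which leaves 9 of the 13 genes, and 0 at an adjusted p under 0.05 from limma. Among the other carbohydrate-binding genes, 1 to 2 were DEGs when 1 library was left out (2 for each of T replicate 2, T replicate 3 and CK replicate 1), 2 with no filter, 3 with array weights and 0 at an adjusted p under 0.05 from limma. Of all tested genes, 387 were DEGs, against 930 with array weights and 241 to 744 when 1 library was left out (241 when T replicate 1 was left out, 627 for T replicate 3, 744 for CK replicate 1 and 257 for CK replicate 2). The cause was not tested. Centring the libraries to one median gave 189 higher and 196 lower DEGs, against 209 and 178 as deposited. Small differences changed sign in Cs_ont_3g014750 (-0.026 with array weights, -0.34 to 0.40 when 1 library was left out), Cs_ont_5g016840 (0.031 with array weights, -0.33 to 0.021 when 1 library was left out) and Cs_ont_9g025590 (-0.15 to 0.35 when 1 library was left out).

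For T and CK libraries with the same replicate number, the correlations of their deviations from the group means were 0.282, 0.212 and -0.037. Replicates 1 and 2 correlated best with their own number. T replicate 3 correlated best with CK replicate 1 (0.227), and CK replicate 3 with T replicate 2 (0.173). With 3 libraries in a group, these values cannot show whether libraries of the same number share more than that number. With a replicate block 470 genes were DEGs, among them 3 neighbours and 1 carbohydrate-binding gene. An unadjusted p under 0.05 from limma was then found for 1079 genes, against 785 without the block. Depth limits Cs_ont_3g014790 and the CK values of Cs_ont_3g014800, which rest on as few as 3 and 15 reads.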

Other observations

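The gene lists for defense response, wounding, cell wall, phloem or xylem and photosynthesis held 0 genes with an adjusted p under 0.05 from limma. Over all 16421 tested genes there was 1, so the 0 does not set these lists apart. Among 522 tested genes annotated to defense response, T had 13 DEGs higher and 4 lower, or 3.26% against 2.36% over all tested genes. Their median log2 difference was 0.04, against 0.02 over all tested genes, and 28 had an unadjusted p under 0.05, as did 785 of all 16421 tested genes. Among the DEGs were the peroxidases Cs_ont_2g034230, at 111 ± 81.7 FPKM in T and 2.21 ± 1.66 FPKM in CK, and Cs_ont_2g034200, at 12.6 ± 7.62 FPKM in T and 0.593 ± 0.438 FPKM in CK (SD, n = 3 each). Lower in T was Cs_ont_5g044660, annotated as a cysteine-type endopeptidase, at 2.40 ± 1.25 FPKM in T and 17.2 ± 6.06 FPKM in CK (SD, n = 3 each). Of 163 tested genes of the response to wounding, 5 were DEGs higher and 1 lower (3.68%, against 2.36% over all tested genes), and 10 had an unadjusted p under 0.05. The DEGs included Cs_ont_1g025560, annotated as a mandelonitrile lyase, an enzyme that releases cyanide, at 73.7 ± 61.9 FPKM in T and 14.5 ± 9.85 FPKM in CK (SD, n = 3 each), with groups that overlapped. Of 208 tested genes of cell wall organization or biogenesis, 4 were DEGs higher and 5 lower (4.33%, against 2.36% over all tested genes), and 11 had an unadjusted p under 0.05. The DEGs included Cs_ont_9g023930, annotated as a pectinesterase inhibitor, at 11.1 ± 12.1 FPKM in T and 55.6 ± 26.8 FPKM in CK (SD, n = 3 each). Higher in T was Cs_ont_6g019860, annotated as a peroxidase, at 14.0 ± 6.4 FPKM in T and 2.47 ± 1.91 FPKM in CK (SD, n = 3 each). Of 63 tested genes of phloem or xylem, 2 were DEGs (3.17%, against 2.36% over all tested genes), both higher in T. The list as a whole did not share this direction. T was the higher group in 27 of the 63 genes and the lower group in 36. The median of their log2 differences was -0.056, against 0.02 over all tested genes. Among the 2 DEGs was Cs_ont_6g011110, the gene whose pattern was nearest to that of Cs_ont_3g014800. Of the 2 DEGs of photosynthesis, Cs_ont_2g029120, annotated as a carbonate dehydratase, stood at 425 ± 136 FPKM in T and 1548 ± 178 FPKM in CK (SD, n = 3 each).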
